A study of Homo sapiens with 43 samples.

Results

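The genes described here are 10 core genes of NF-kB signalling, chosen by name from 20037 protein-coding genes: NFKB1, NFKB2, REL, RELA and RELB, which encode the DNA-binding subunits, NFKBIA, NFKBIE and NFKBIZ of the inhibitor (IkB) family, TNFAIP3, which encodes the ubiquitin-editing enzyme A20, and TRAF1, which encodes a signalling adaptor. Each gene was read in all 33 chromatin immunoprecipitation peak lists of a study of CDK-TCIP1, a bivalent small molecule that binds the elongation kinase CDK9 and the repressor BCL6. A gene held a list's target when a peak lay within 1 kb of either gene end, and Ser2P was also read over the gene with 2 kb either side. The cells were 2 cultured lines from diffuse large B-cell lymphoma, SUDHL5 and KARPAS422, given 0.1% DMSO or 30 nM CDK-TCIP1. CDK9 was mapped at 2 h in 3 sets of lists, each made of a DMSO pair and a treated pair: SUDHL5 with antibody ab239364, SUDHL5 with antibody CST2316S, and KARPAS422 with the latter antibody. In SUDHL5, RNA polymerase II phosphorylated at serine 5 (Ser5P) or serine 2 (Ser2P) of its repeats was mapped in 2 lists per group and total polymerase (Pol II) in 3, after 4 h of DMSO and after either 2 h or 4 h of CDK-TCIP1. Both treated times are thus set against the same DMSO lists, and the 2 h lists also differ from these in time. The labels do not say that replicates came from separate cultures, so the spread between lists may be technical, and each line stands for 1 source of cells. Some of the gene-end windows overlap a neighbouring gene (NFKB2 with PSD, RELB with CLASRP, NFKBIE with SLC35B2, NFKBIZ with NXPE3 and TRAF1 with PHF19), and a peak there can belong to either gene.

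NF-kB subunits pair into dimers that inhibitor proteins hold inactive, and kinases downstream of the B-cell receptor, CD40 and Toll-like receptors release them to bind kappaB sites in DNA. Several of the genes are themselves known targets of the pathway: NFKBIA and TNFAIP3 act as brakes that shut the signal off, NFKB1 and NFKB2 encode precursors that are processed into the subunits p50 and p52, and TRAF1 is a marker of pathway activity in B cells. In germinal-centre B cells BCL6 represses parts of this programme. Serine 5 phosphorylation marks polymerase near transcript starts, and serine 2 phosphorylation, to which CDK9 contributes, marks polymerase that elongates through the gene.

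The lists held 138 to 28951 peaks, and no read totals came with them, so depth is unknown. CDK9 lists were longer after treatment: 9262 and 11148 against 915 and 3508 peaks for ab239364, 10005 and 9761 against 1611 and 1264 for CST2316S in SUDHL5, and 14554 and 10297 against 6689 and 7804 in KARPAS422. The part of list length in the gains below was not tested beyond the comparison at equal numbers of peaks given with them. Replicate 1 of Pol II stood apart with 710, 1214 and 138 peaks in the 3 groups, where replicates 2 and 3 held 1572 to 4000. Of the fixed markers, 6 of 6 B-cell genes had a Ser5P peak at a gene end in both SUDHL5 DMSO lists, and 5 of 6 had a CDK9 peak in both KARPAS422 DMSO lists, against 0 of 5 myeloid markers in each. The T-cell genes CD3E and LCK also had peaks in both of these groups, and CD3D in KARPAS422. In the CST2316S DMSO lists of SUDHL5, 3 of 6 B-cell, 0 of 6 T-cell and 0 of 5 myeloid genes had a CDK9 peak in both.

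Promoters from RefSeq (build GRCh38.p14, 250 bases before to 50 after a transcript start) were on hand for 8 of the 10 genes, not for RELB and NFKBIE. Those printed here belong to NFKB1, NFKBIA, NFKBIZ and TRAF1, which had CDK9 in both treated lists and in neither DMSO list of at least 1 CDK9 set. RELA met the same condition and is left out, since no CDK9 peak lay over its promoters. Capitals mark matches to the kappaB consensus on either strand, written on the gene's strand.
NFKB1 promoter 1, chr4:102501109-102501408, plus strand: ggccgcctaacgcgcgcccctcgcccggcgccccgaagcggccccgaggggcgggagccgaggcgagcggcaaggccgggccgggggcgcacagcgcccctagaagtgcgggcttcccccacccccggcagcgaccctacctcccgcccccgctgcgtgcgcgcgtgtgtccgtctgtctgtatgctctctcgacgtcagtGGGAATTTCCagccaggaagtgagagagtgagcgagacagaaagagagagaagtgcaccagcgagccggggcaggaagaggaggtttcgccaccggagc
NFKB1 promoter 2, chr4:102501684-102501983, plus strand: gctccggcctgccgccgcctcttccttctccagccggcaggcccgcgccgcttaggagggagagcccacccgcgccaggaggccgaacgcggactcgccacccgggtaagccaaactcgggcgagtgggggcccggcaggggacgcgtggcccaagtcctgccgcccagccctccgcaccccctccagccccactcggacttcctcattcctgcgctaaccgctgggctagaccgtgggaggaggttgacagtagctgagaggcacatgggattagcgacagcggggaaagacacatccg
NFKBIA promoter, chr14:35404700-35404999, minus strand: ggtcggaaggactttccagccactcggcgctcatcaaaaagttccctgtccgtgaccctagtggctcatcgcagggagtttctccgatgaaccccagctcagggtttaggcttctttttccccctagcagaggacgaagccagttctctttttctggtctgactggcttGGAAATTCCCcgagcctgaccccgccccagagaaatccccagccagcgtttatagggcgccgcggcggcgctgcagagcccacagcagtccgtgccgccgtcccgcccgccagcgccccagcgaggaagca
NFKBIZ promoter 1, chr3:101827740-101828039, plus strand: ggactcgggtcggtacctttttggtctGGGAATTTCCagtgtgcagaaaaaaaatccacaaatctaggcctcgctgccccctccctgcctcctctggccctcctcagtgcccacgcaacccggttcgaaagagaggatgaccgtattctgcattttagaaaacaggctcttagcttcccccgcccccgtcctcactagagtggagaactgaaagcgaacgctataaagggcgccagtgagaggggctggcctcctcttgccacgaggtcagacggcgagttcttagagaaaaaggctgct
NFKBIZ promoter 2, chr3:101849264-101849563, plus strand: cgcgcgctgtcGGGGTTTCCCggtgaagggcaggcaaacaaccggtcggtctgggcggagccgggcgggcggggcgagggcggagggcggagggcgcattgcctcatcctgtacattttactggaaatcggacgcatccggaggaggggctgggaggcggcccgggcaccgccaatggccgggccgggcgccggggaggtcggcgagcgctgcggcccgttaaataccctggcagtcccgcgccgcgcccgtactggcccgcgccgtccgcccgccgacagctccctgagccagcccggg
TRAF1 promoter 1, chr9:120929122-120929421, minus strand: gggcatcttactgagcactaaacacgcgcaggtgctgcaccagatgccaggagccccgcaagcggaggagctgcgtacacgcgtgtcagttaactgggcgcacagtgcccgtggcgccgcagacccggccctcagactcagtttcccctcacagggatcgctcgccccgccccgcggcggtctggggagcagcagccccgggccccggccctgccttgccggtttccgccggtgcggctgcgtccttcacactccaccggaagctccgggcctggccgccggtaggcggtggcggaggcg
The kappaB consensus is in 6.53% of the 22199 promoters of the table. Among the 8 genes with an entry it is in at least 1 promoter of NFKB1, NFKB2, REL, NFKBIA, NFKBIZ and TNFAIP3, and in none of RELA or TRAF1. In NFKB1 the match and the CDK9 peak lay apart: promoter 1 holds GGGAATTTCC beginning 49 bases before the start and had no CDK9 peak over it in any of 12 lists, while promoter 2, which starts 0.575 kb further along and holds no match, had one in all 6 treated lists and in 0 of 6 DMSO lists. The shorter core GGGAA, searched on both strands and contained in some of the consensus matches, is in 66.4% of promoters and so separates little. The BCL6 core TTCCNNGAA, also read on both strands, is in 4.15% of promoters and in none of the promoters of these genes. That says only that these letters are not in these windows.

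After CDK-TCIP1, CDK9 peaks appeared at the ends of 5 of the 10 genes in at least 1 set, counting a gene as gained when both treated lists and neither DMSO list had a peak. NFKB1 was gained in all 3 sets, TRAF1 and RELA with ab239364, and NFKBIA and NFKBIZ with CST2316S in SUDHL5. The shares of all genes gained in at least 1 set, or in all 3, were not computed, and those that follow are for single sets. The counts were 3 of 10 with ab239364, where 7.57% of all genes were gained, 3 of 10 with CST2316S in SUDHL5, where 6.31% were, and 1 of 10 in KARPAS422, where 4.38% were. None of the 10 lost CDK9 in any set, where 0.00998%, 0% and 0.629% of all genes did. Over the gene with 2 kb either side, 3, 5 and 1 genes were gained in the same order of sets, against 10.0%, 10.2% and 5.36% of all genes, and the additions with CST2316S in SUDHL5 were RELB and TNFAIP3. No gain was left when each list was reduced to the same number of top-ranked peaks as the shortest list of its set: the count was then 0 in all 3 sets. At a -log10 q of at least 5, the gain of NFKB1 in KARPAS422 was not made, since its peak in the second treated list stood at 3.39, nor were those of RELA with ab239364 and NFKBIZ with CST2316S. With ab239364 the count was 6 without DMSO replicate 2 and 7 without CDK-TCIP1 replicate 1. In KARPAS422 it was 2 without DMSO replicate 2 or CDK-TCIP1 replicate 1 and 3 without CDK-TCIP1 replicate 2. For these counts there is no test.

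**Figure D1:**
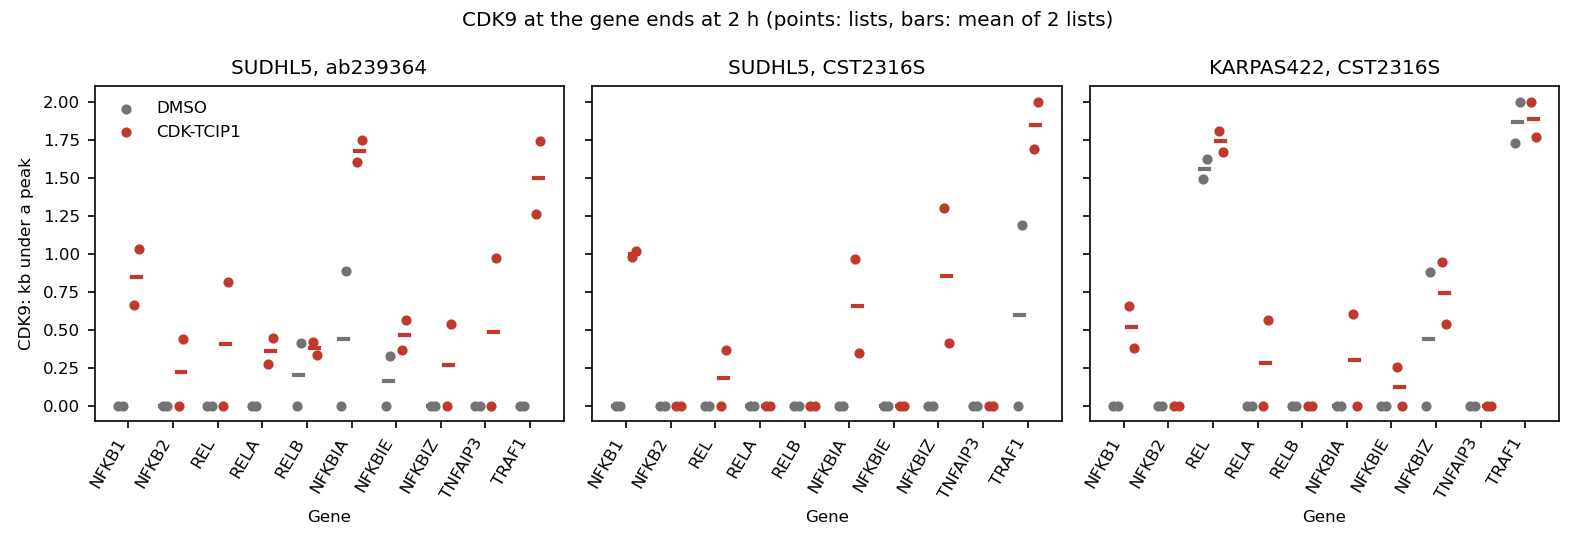
CDK9 at the 10 genes at 2 h: length in kb under a peak within 1 kb of either gene end, by set. Points are lists and bars are means of 2 lists, grey for DMSO and red for CDK-TCIP1; NFKB1 is at 0 in every DMSO list and above 0 in every treated list.

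NFKB1, the gene of p105 and p50, was the 1 subunit gene with CDK9 in every treated list and in no DMSO list. The length under CDK9 peaks at its ends was 0.664 and 1.03 kb in the treated ab239364 lists, 0.98 and 1.02 kb in the treated CST2316S lists of SUDHL5, and 0.658 and 0.38 kb in the treated KARPAS422 lists. It was 0 in all 6 DMSO lists, so treated and DMSO lists did not overlap. Part of the treated length lay at the far end of the gene, away from the starts. That part was 0.446 kb in the second ab239364 list, and 0.345 and 0.424 kb in the CST2316S lists of SUDHL5. It counts in the difference that follows. Averaged over the 3 sets the difference was 0.789 kb, with an exact two-sided permutation p of 0.0556, the smallest that the 36 relabellings allow when both SUDHL5 antibodies are relabelled together. At equal numbers of top peaks the difference was 0. The peaks near the second transcript start in all 6 treated lists shared 409 bases, chr4:102501980-102502388, centred 0.25 kb inside that start. Ser5P lay over that stretch in all 6 SUDHL5 lists, DMSO included. By rank this NFKB1 peak was moderate. It stood at place 1130 and 2411 in the ab239364 lists, at 3029 and 4936 with CST2316S in SUDHL5 and at 7945 and 8647 in KARPAS422. With CST2316S in both lines those places lie beyond the whole length of the DMSO lists of the set.

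The other subunit genes differed from NFKB1 and from each other. For REL, which encodes c-Rel, KARPAS422 had 1.49 and 1.62 kb under CDK9 peaks in DMSO and 1.81 and 1.67 kb after treatment, while SUDHL5 had 0 in all 4 DMSO lists and 0, 0.814, 0 and 0.367 kb in the treated lists. Its combined difference was 0.258 kb (exact permutation p = 0.167). RELA, which encodes p65, had 0.276 and 0.445 kb in treated ab239364 lists, 0 in the CST2316S lists of SUDHL5, and 0 and 0.563 kb in treated KARPAS422 lists. Its CDK9 peaks had their summits 10.1 to 10.2 kb past the second start. They lay just outside the low-coordinate end of the gene, and none lay over a promoter. They ranked in the last part of their lists, at 89.5%, 92.1% and 87.4% of the way down. NFKB2 had CDK9 in 1 treated list of 6, with 0.441 kb. The combined differences were 0.214 kb for RELA (exact permutation p = 0.167) and 0.0735 kb for NFKB2 (exact permutation p = 1).

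RELB encodes the partner of p52 in the alternative pathway. At its gene ends CDK9 covered 0.423 and 0.335 kb in the treated ab239364 lists against 0 and 0.413 kb in DMSO, which overlap, and 0 in the 8 CST2316S lists. Its main CDK9 peak in treated SUDHL5 lists lay inside the gene, and all 4 treated SUDHL5 lists shared 942 bases there, chr19:45016216-45017157, centred 15.2 kb from the low-coordinate end. Among the peaks over RELB it ranked at 537 and 790 in the treated ab239364 lists and at 1821 and 2014 with CST2316S. Over the gene the length was 1.91, 2.51, 3.23 and 2.57 kb in these 4 lists, against 0, 0.697, 0 and 0 kb in the SUDHL5 DMSO lists. KARPAS422 had 0.386 and 0 kb without the compound and 0 in either list with it, so treated lists were above DMSO in SUDHL5 and not in KARPAS422. At the gene ends the combined difference was 0.0575 kb (exact permutation p = 0.667). A peak over the same stretch was in 1 of 2 DMSO lists with ab239364 and 1 of 2 DMSO lists in KARPAS422, and in neither CST2316S DMSO list of SUDHL5. The stretch was found from the treated lists, so these counts are a description. Ser5P and Ser2P lay over it in all 6 lists each, and Pol II in 0 of 9.

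**Figure D2:**
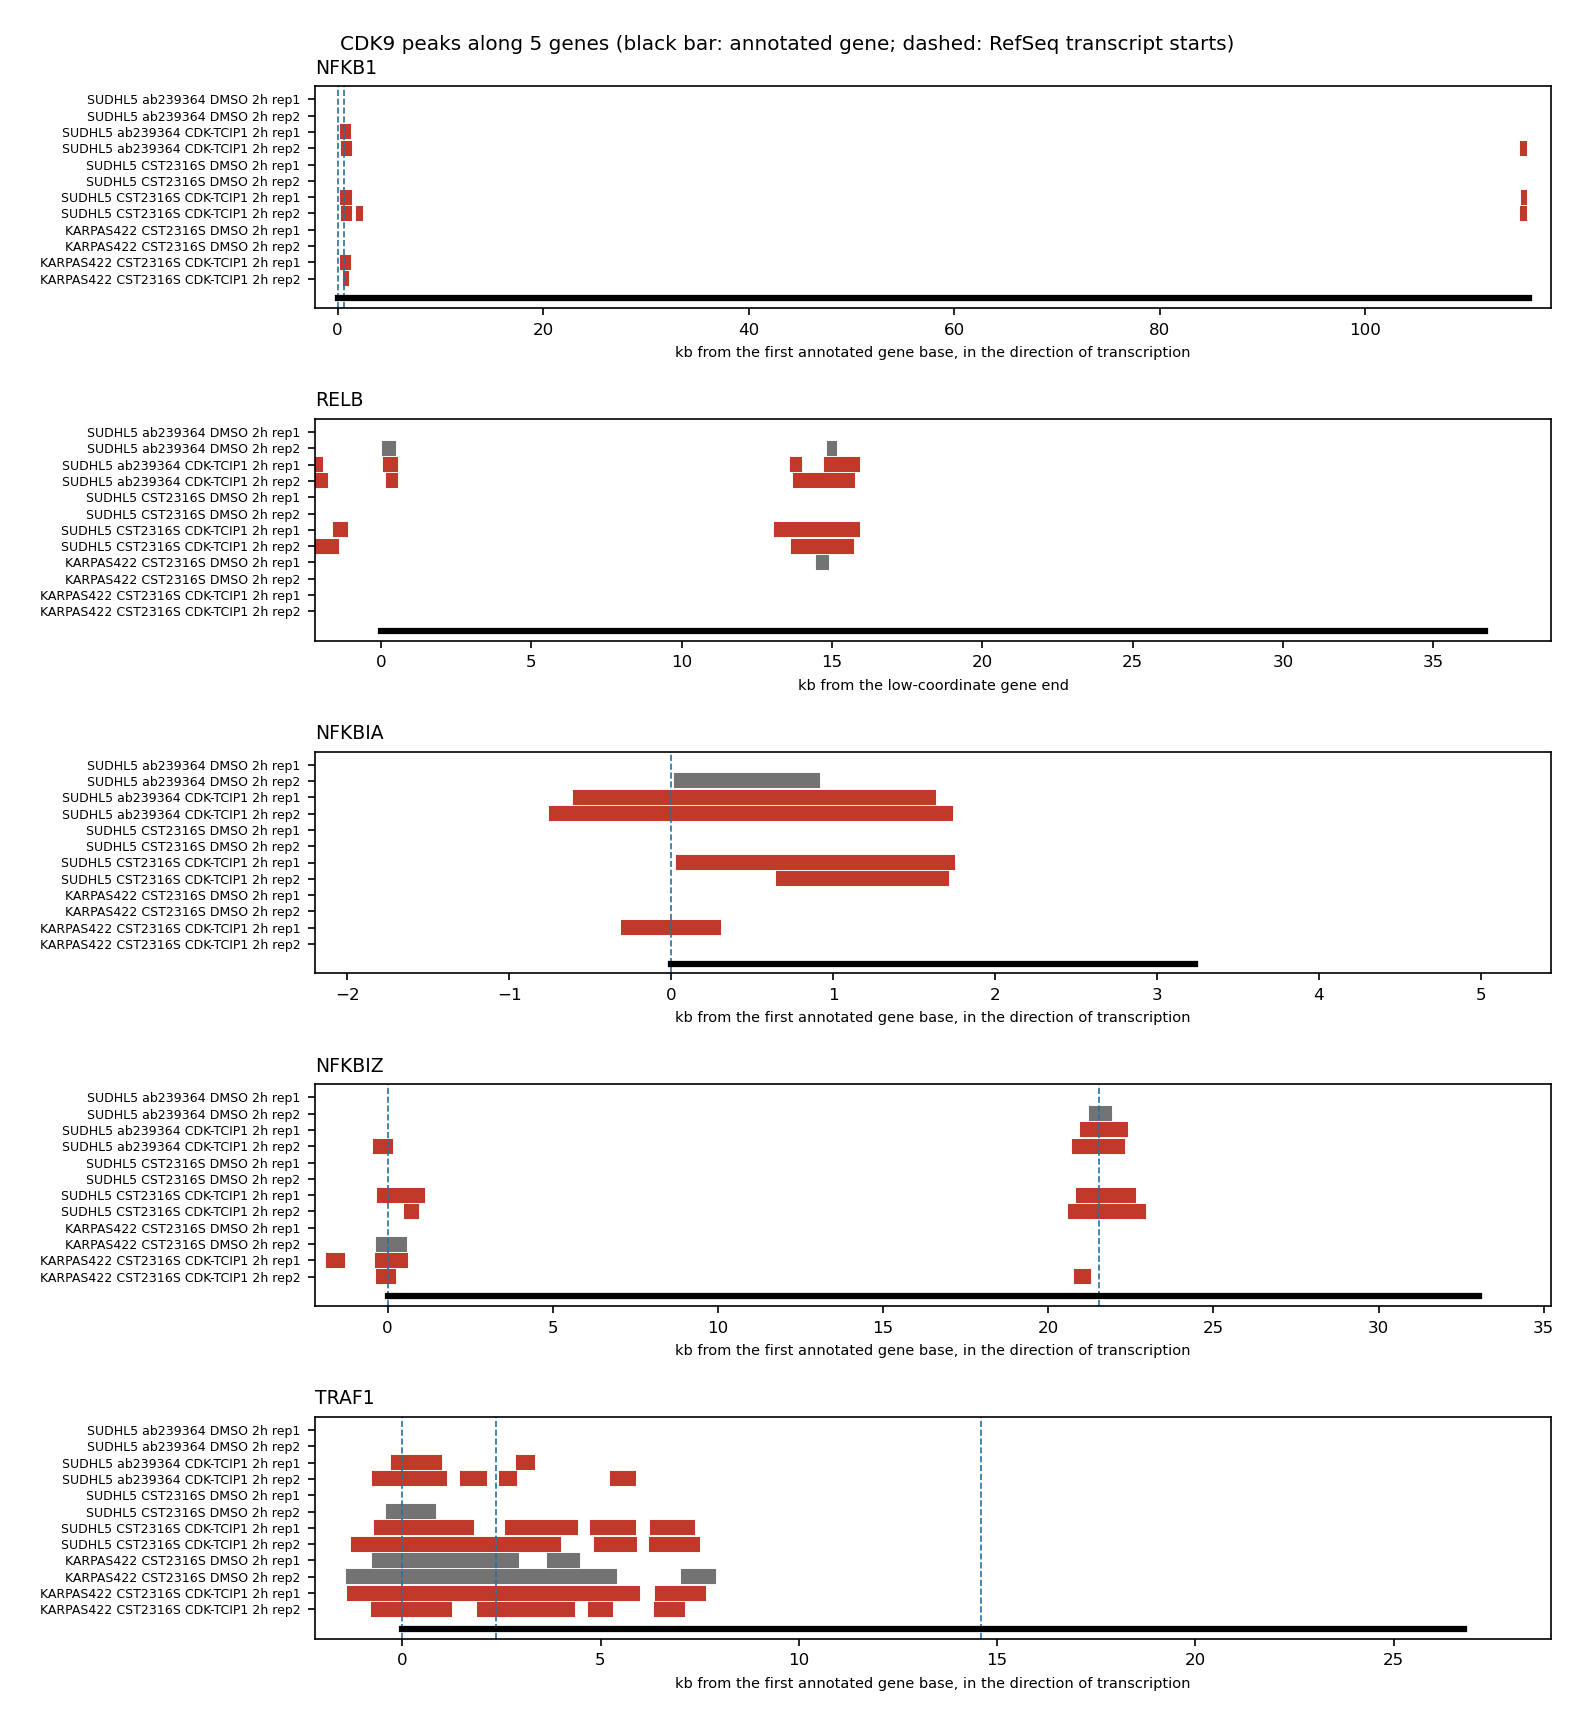
CDK9 peaks along NFKB1, RELB, NFKBIA, NFKBIZ and TRAF1 in the 12 CDK9 lists, as distance in kb from the first gene base (for RELB from the low-coordinate end). Red blocks are treated lists, grey blocks DMSO lists, the black bar is the gene and dashed lines are transcript starts; blocks narrower than the line width are widened so that they can be seen.

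The inhibitor genes NFKBIA and NFKBIZ had CDK9 at their starts or just inside them in most treated lists. NFKBIA, which encodes the inhibitor that NF-kB induces to end its own signal, had 1.6 and 1.75 kb under gene-end peaks in treated ab239364 lists against 0 and 0.885 kb in DMSO. With CST2316S in SUDHL5 it had 0.966 and 0.349 kb against 0 and 0, and in KARPAS422 0.607 and 0 kb against 0 and 0. The treated SUDHL5 peaks shared 976 bases, chr14:35403122-35404097, centred 1.14 kb inside the start. The combined difference was 0.732 kb (exact permutation p = 0.167), with treated above DMSO in 5 of 6 same-numbered pairs of lists.

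NFKBIZ encodes IkB-zeta, a nuclear inhibitor-family protein that works as a cofactor of p50, and it has 2 promoters. At the first start CDK9 covered 0.949 and 0.541 kb in treated KARPAS422 lists and 0 and 0.882 kb in DMSO. Treated SUDHL5 lists had 0 and 0.537 kb there with ab239364 and 1.3 and 0.412 kb with CST2316S, and the 4 DMSO lists had 0. In SUDHL5 the longer peak was at the second start, 21.5 kb inside the gene and outside the gene-end windows. It was in all 4 treated lists and in 1 of 4 DMSO lists, the second ab239364 list, and in KARPAS422 a peak was there in 1 of 2 treated lists and 0 of 2 DMSO lists. Whether the lines differ in the use of the 2 starts was not tested. Over the gene with 2 kb either side the treated SUDHL5 lists had 1.39, 2.09, 3.17 and 2.72 kb and the DMSO lists 0, 0.619, 0 and 0 kb. Treated KARPAS422 lists had 1.47 and 0.995 kb against 0 and 0.882 kb, so no treated list fell below a DMSO list of its set. The part of the 1.47 kb beyond the 0.949 kb at the first start lay upstream of the gene, and it counts in the difference that follows. The combined difference over the gene was 1.72 kb at the smallest possible exact permutation p of 0.0556, and at the gene ends it was 0.476 kb (exact permutation p = 0.111). The window over the gene was added for CDK9 after the values were seen.

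NFKBIE, which encodes IkB-epsilon, and TNFAIP3 had CDK9 at their gene ends in a minority of lists. NFKBIE had 0.365 and 0.567 kb with ab239364 after treatment against 0 and 0.328 kb in the DMSO lists, and 0.255 kb in 1 of the other 4 treated lists. With ab239364 the 0.365 kb and the 0.328 kb lay at the low-coordinate end of the gene and the 0.567 kb at the other end. TNFAIP3 had a gene-end peak in 1 treated list, with 0.973 kb. RefSeq places its start 0.91 kb inside the annotated gene, and 2 further treated lists, both CST2316S in SUDHL5, had a peak 0.61 and 0.62 kb past that start and just outside the window. KARPAS422 had no CDK9 peak over TNFAIP3 in any of 4 lists. The combined differences were 0.143 kb for NFKBIE (exact permutation p = 0.167) and 0.162 kb for TNFAIP3 (exact permutation p = 1).

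TRAF1 had CDK9 over several kb. Its peaks ran from the first start up to several kb into the gene: over the gene, KARPAS422 had 4.41 and 7.63 kb in DMSO and 8.58 and 5.76 kb after treatment, which overlap. In DMSO KARPAS422 its best peak ranked 128 and 200, within the top 1.91% and 2.56% of the lists. In SUDHL5 the length over the gene was 0 and 0 kb with ab239364 and 0 and 1.19 kb with CST2316S in DMSO, against 1.7, 3.5, 6.45 and 7.49 kb in the treated lists, all above every DMSO list. The exact permutation p within either antibody was 0.333, the smallest that 2 against 2 lists allow. At the gene ends the combined difference was 0.923 kb (exact permutation p = 0.167), and at equal numbers of top peaks it was -0.191 kb. In DMSO, TRAF1 and REL thus had CDK9 in both KARPAS422 lists and in 1 and 0 of 4 SUDHL5 lists. Over all genes CDK9 was at the ends of 15.5% and 18.2% in the KARPAS422 DMSO lists, of 1.91% and 1.58% in the CST2316S lists of SUDHL5 and of 3.95% and 13.4% in the ab239364 lists. The difference between lines was not tested.

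**Figure D3:**
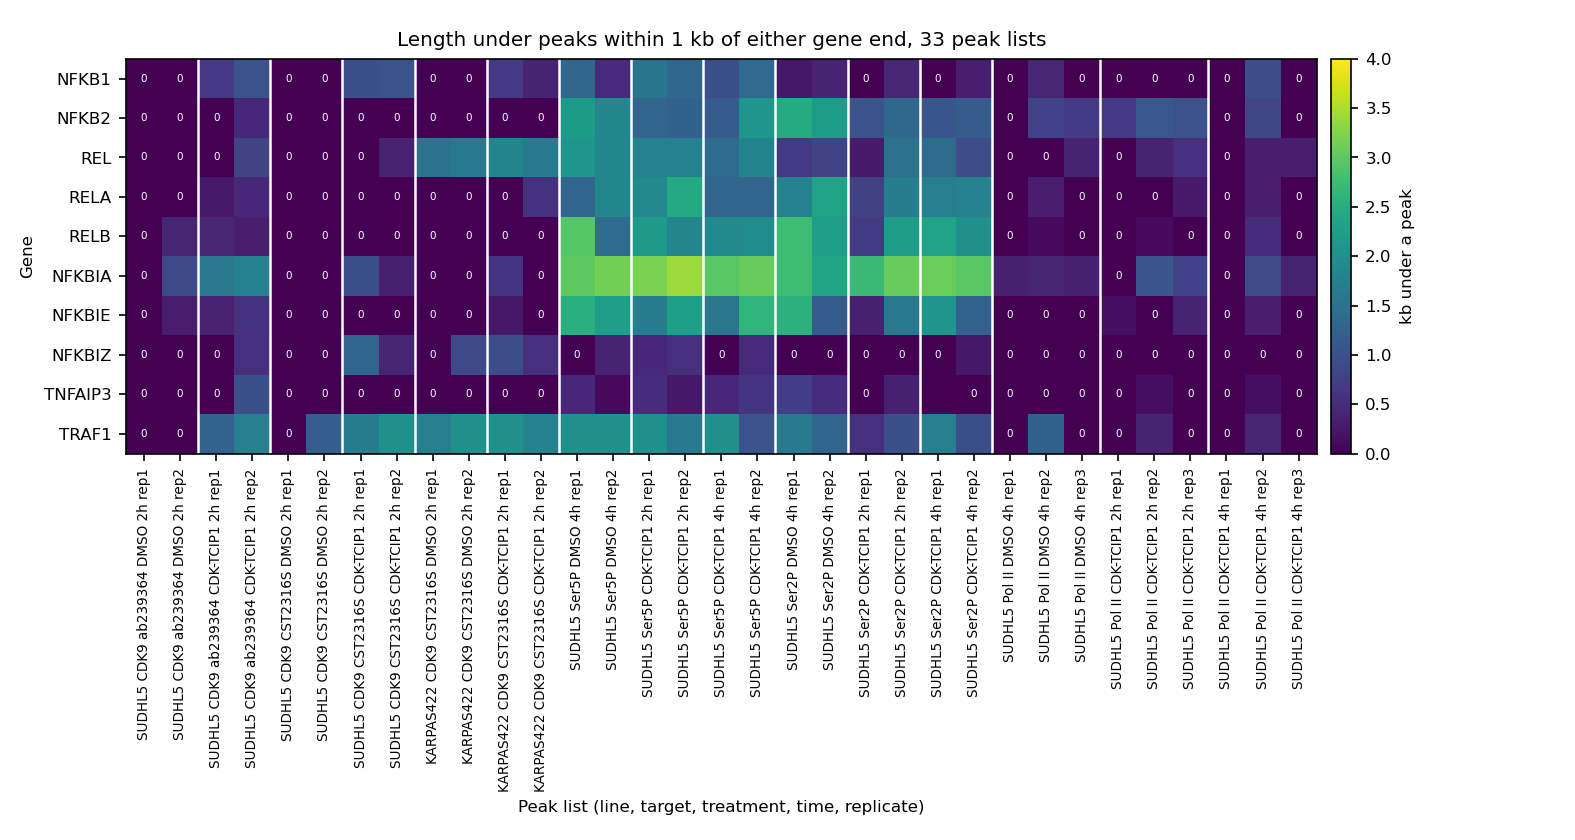
Length in kb under a peak within 1 kb of either gene end for the 10 genes (rows) in the 33 lists (columns, groups separated by white lines). A 0 marks no peak; Ser5P fills nearly every row, Pol II differs from list to list, and CDK9 appears mainly in the treated columns.

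Ser5P was present at these genes in DMSO. At the gene ends 9 of 10 had Ser5P in both DMSO lists and in both treated lists at 2 h and at 4 h, where 26% and 23.9% of all genes had it in all 4 lists of the comparison. The other one, NFKBIZ, had a gene-end peak in 1 of 2 DMSO lists, both lists at 2 h and 1 of 2 at 4 h, with 0.405 to 0.557 kb, and its longer Ser5P peak lay at the internal start. No gene gained Ser5P, against 2.73% of all genes at 2 h and 1.40% at 4 h, and none lost it, against 0.260% and 0.419%. Since 10 of 10 genes had a Ser5P peak in at least 1 DMSO list, none could be gained. Over the gene, treated lists were all below DMSO lists for 2 genes and all above for 2 at 2 h, and for 3 and 1 at 4 h. Among the 6453 genes covered in every DMSO list, as all 10 were, those shares were 10.6% below and 32.2% above at 2 h, and 20% and 14.7% at 4 h.

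The genes with shorter Ser5P at 2 h were REL and TRAF1. REL had 5.48 and 4.66 kb in DMSO, 2.09 and 2.52 kb at 2 h and 1.42 and 3.97 kb at 4 h. TRAF1 had 8.37 and 5.55 kb in DMSO, 5.53 and 2.13 kb at 2 h and 3.38 and 1.02 kb at 4 h. At 4 h NFKBIE was also below, with 2.93 and 4.55 kb against 5.63 and 4.66 kb. The longer ones at 2 h were NFKBIA, with 4.62 and 4.63 kb against 4.24 and 4.14 kb, and NFKBIZ. Each of these group differences reached the smallest exact permutation p of 0.333.

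The NFKBIZ peak also differed in rank, and NFKBIZ was not the only gene of which this held. Its Ser5P peak at the second start ranked 561 and 604 in DMSO, 212 and 225 at 2 h and 250 and 362 at 4 h, or the top 3.15% and 5.13%, then 1.40% and 1.69%, then 2.31% and 2.54% of the lists. The length over the gene was 2.57 and 1.78 kb in DMSO, 3.9 and 3.33 kb at 2 h and 2.87 and 2.79 kb at 4 h. Every treated list was thus above both DMSO lists in length and in rank. The best Ser5P peak of NFKB2 likewise ranked 1447 and 1766 in DMSO, 1218 and 1284 at 2 h and 792 and 723 at 4 h. As a share of the list its 2 h ranks, 8.07% and 9.66%, overlapped the 8.14% and 15% of DMSO. TNFAIP3 ranked higher at 2 h only, at 3729 and 2498 against 4608 and 4141. NFKBIA had ranks of 435 and 280 in DMSO and of 357 and 222 at 2 h, which overlap.

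**Figure D4:**
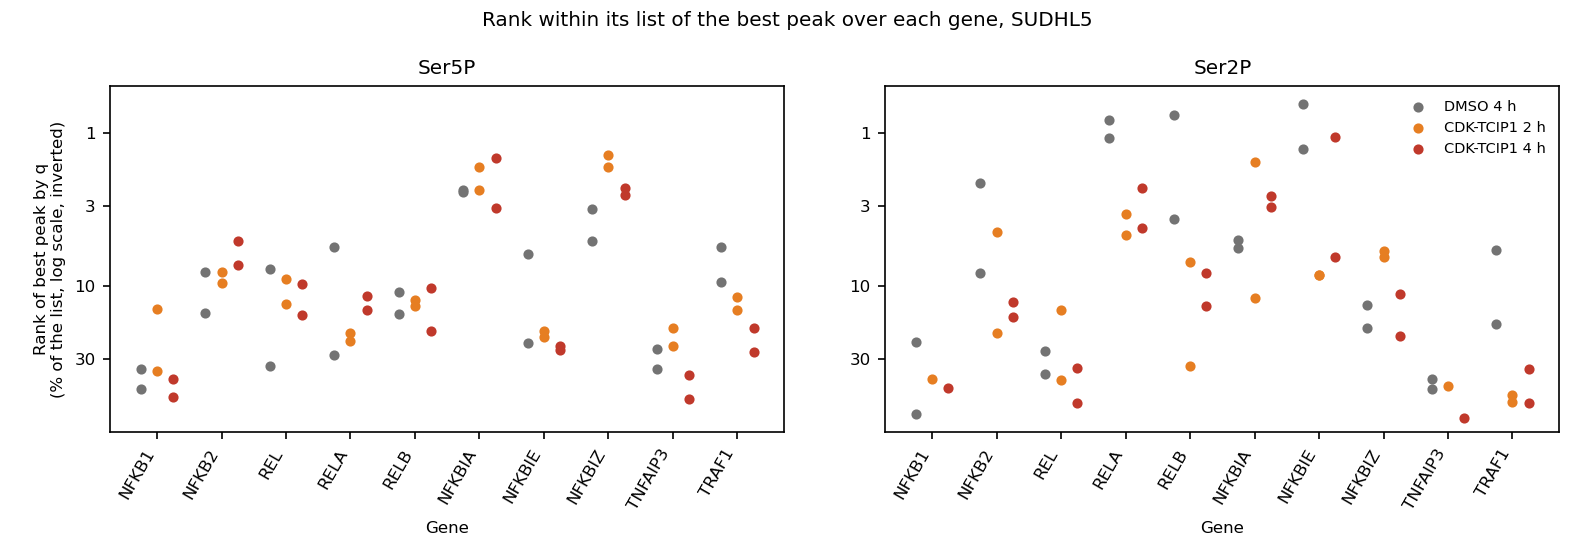
Rank of the best peak over each gene within its own list, as a percentage of the list on an inverted log axis, for Ser5P (left) and Ser2P (right) in SUDHL5. Points are lists, grey for 4 h of DMSO, orange for 2 h and red for 4 h of CDK-TCIP1; a list with no peak over the gene has no point.

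Ser2P covered less of 4 of these genes in every treated list than in every DMSO list. The share of all genes for which that held at both times was not computed. No gene gained a Ser2P peak over the gene, against 0.135% of all genes at 2 h and 1.37% at 4 h, and none lost it, against 1.98% and 1.21%. The 8 genes other than NFKB1 and TNFAIP3 had one in every list, where 18.9% of all genes had one in all 4 lists of the 2 h comparison and 29.9% in those of the 4 h comparison. In covered length all treated lists were below all DMSO lists for 4 of 10 genes at 2 h and 5 of 10 at 4 h, where 38.7% and 29.5% of the 6864 genes covered in every DMSO list were. They were above for 0 genes at 2 h and 1 at 4 h, where 0.947% and 14% were. The median ratio of treated to DMSO length was 0.601 for the 10 genes against 0.562 for all at 2 h, and 0.63 against 0.833 at 4 h. At 2 h the counts and the ratio are near those of all genes. Every treated list also held fewer peaks than either DMSO list. The DMSO lists held 28951 and 16593 peaks, the 2 h lists 6519 and 16170 and the 4 h lists 16323 and 13657. The part of list length in the covered length was not tested.

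The same 4 genes were below DMSO at both times, which were set against the same DMSO lists: NFKB2, RELA, RELB and TRAF1. RELB had 17.2 and 11.4 kb of Ser2P in DMSO, in 25 and 15 separate peaks, 2.02 and 5.23 kb at 2 h and 10.2 and 5.59 kb at 4 h. TRAF1 had 8.86 and 4.35 kb in DMSO, 0.551 and 1.32 kb at 2 h and 3.24 and 0.961 kb at 4 h. Its DMSO peaks reached along the gene, while at 2 h the lists held 1 and 2 peaks, all with summits within 1.37 kb of the first start. NFKB2 had 7.65 and 6.43 kb, then 2.07 and 3.98 kb, then 3.53 and 4.51 kb. RELA had 6.37 and 3.98 kb, then 1.13 and 3.06 kb, then 3.77 and 3.35 kb. The mean difference at 2 h was -10.7 kb for RELB, -5.67 kb for TRAF1, -4.02 kb for NFKB2 and -3.08 kb for RELA, each at the smallest exact permutation p of 0.333 that 2 against 2 lists allow. Without 1 list it was -13.5 to -7.79 kb for RELB and -4.97 to -3.07 kb for NFKB2. It was -3.41 kb for TRAF1 and -1.88 kb for RELA without DMSO replicate 1, the longest list. These lengths are sums over peaks called separately in each list. TNFAIP3 was the fifth at 4 h, with 0.483 and 0 kb against 1.64 and 0.713 kb.

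**Figure D5:**
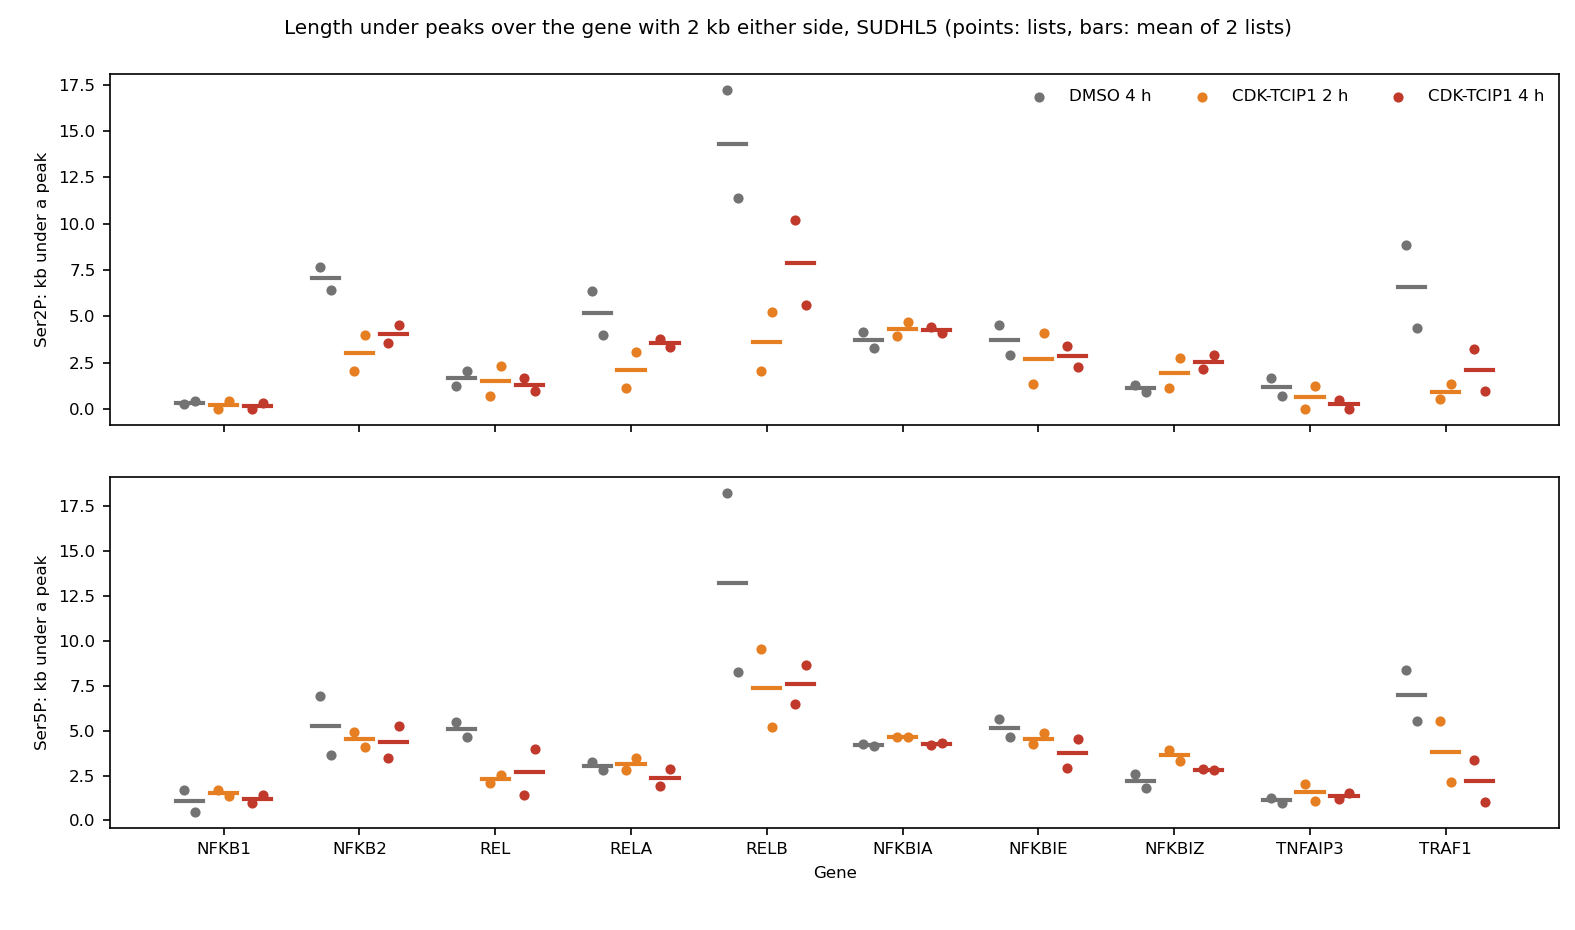
Length in kb under Ser2P (top) and Ser5P (bottom) peaks over each gene with 2 kb either side in SUDHL5. Points are lists and bars means of 2 lists, for 4 h of DMSO and for 2 h or 4 h of CDK-TCIP1; for Ser2P, all treated points of RELB and TRAF1 lie below their DMSO points, and the 4 h points of NFKBIZ lie above.

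NFKBIZ was the 1 gene above DMSO for Ser2P at 4 h, with 1.29 and 0.927 kb in DMSO, 1.11 and 2.75 kb at 2 h and 2.15 and 2.92 kb at 4 h, so the 4 h lists lay above DMSO and the 2 h lists overlapped it. NFKBIA had Ser2P in all lists, with 4.14 and 3.26 kb in DMSO, 3.96 and 4.71 kb at 2 h and 4.42 and 4.12 kb at 4 h, which overlap. The summit of its best peak lay at different places: 0.08 and 0.02 kb past the start in DMSO, 3.07 and 0.78 kb at 2 h and 0.92 and 0.91 kb at 4 h. REL and NFKBIE overlapped DMSO at both times, and NFKB1 had at most 0.442 kb of Ser2P in any list.

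Set side by side, the CDK9 and polymerase readings differed from gene to gene. TRAF1 and RELB had CDK9 over the gene in all 4 treated SUDHL5 lists and shorter Ser2P in every treated list. Of the genes with Ser2P in every DMSO list, 38.7% had it shorter in both treated lists at 2 h and 29.5% at 4 h. NFKBIA also had CDK9 over the gene in all 4 treated SUDHL5 lists, with Ser2P overlapping DMSO at both times. NFKBIZ had CDK9 in the same lists, longer Ser5P at both times and longer Ser2P at 4 h. NFKB1 had CDK9 in these lists too, with Ser5P over the gene overlapping DMSO at both times; at its gene ends Ser5P covered 1.55 and 1.35 kb at 2 h and 0.978 and 1.4 kb at 4 h, against 1.32 and 0.483 kb in DMSO, so the 2 h lists lay above DMSO and the 4 h lists overlapped it. NFKB2 had CDK9 over the gene in 1 of these 4 lists. RELA had it in 2 of them, past the low-coordinate end and not over the gene itself. Both NFKB2 and RELA had shorter Ser2P in every treated list. Whether the CDK9 and polymerase readings are linked was not tested.

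Total Pol II at these genes varied with the list. A gene-end peak was present at 1, 6 and 3 of the 10 in the DMSO lists, at 2, 6 and 5 at 2 h and at 0, 9 and 2 at 4 h, in the order of replicates 1, 2 and 3. Over all genes the shares in the same order were 2.68%, 12.5% and 9.05%, then 5.10%, 16.6% and 10.6%, then 0.569%, 13.5% and 6.95%. None of the 10 genes had a peak in all 6 lists of a comparison, where 1.85% of all genes did at 2 h and 0.499% at 4 h, none was gained, against 0.170% of all genes at 2 h and 0% at 4 h, and none was lost, against 0.00499% and 0.0299%. NFKB2 had a Pol II peak in all 3 lists at 2 h, with 0.662, 1.09 and 0.989 kb against 0, 0.808 and 0.687 kb in DMSO, which overlap (exact permutation p = 0.3, where 0.1 is the smallest that 3 against 3 lists allow). NFKBIA had 0.344, 0.41 and 0.349 kb in DMSO and 0, 1.06 and 0.8 kb at 2 h, where the 0 belongs to replicate 1, the short list. At 4 h it had 0, 0.916 and 0.404 kb, the 0 again in replicate 1. At the second start of NFKBIZ, outside the gene-end windows, a Pol II peak was in 2 of 3 DMSO lists, 3 of 3 lists at 2 h and 2 of 3 at 4 h, and the lengths over the gene, 0, 0.658 and 0.313 kb in DMSO and 0.465, 0.859 and 0.839 kb at 2 h, overlap (exact permutation p = 0.2). Taken by replicate number, each 2 h length of NFKB2 at the ends and of NFKBIZ over the gene was above its DMSO length. Each 2 h list also held more peaks than the DMSO list of its number. That order was not tested. Without replicate 1 no gene was gained at either time.

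Among other genes of the pathway, CDK9 was gained at a minority of gene ends in each set. Of 18 kinases and adaptors upstream of NF-kB, 3, 2 and 2 were gained in the ab239364 set, the CST2316S set of SUDHL5 and the KARPAS422 set, of 8 receptors 1, 0 and 1, of 10 further inhibitors 1, 1 and 1, and of 22 further target genes 3, 3 and 2, beside the background shares given above. TAB1, an activating partner of the kinase TAK1, was gained in all 3 sets, with 0.464 and 0.453 kb, 0.586 and 0.922 kb, and 1.44 and 1.87 kb in the treated lists and 0 in every DMSO list. CD86, a costimulatory ligand, was gained with both antibodies in SUDHL5, with 0.73, 0.641, 1.61 and 1.33 kb, and in KARPAS422 had 1.48 and 2 kb in DMSO, with 2 kb in each treated list. LTB, which encodes lymphotoxin beta, was gained with ab239364 and in KARPAS422. It was the 1 pathway gene gained for Pol II at 2 h, where 0.170% of all genes were. IKBKB, the kinase that marks IkB proteins for destruction, and IRAK1 lost CDK9 in KARPAS422, 2 of the 18, where 0.629% of all genes did. Of the polymerase readings, Ser5P was gained at both times by CYLD, a deubiquitinase that limits the pathway, and by IER3. At 2 h it was also gained by IRAK1 and at 4 h by MAP3K7. By list this was 1 of 18, 0 of 8, 1 of 10 and 1 of 22 at each time, in the order above. Of all genes, 2.73% gained Ser5P at 2 h and 1.40% at 4 h. Ser2P was lost at 4 h by IRAK1 and TRAF2, 2 of the 18, and by PLEK, 1 of the 22, where 1.21% of all genes lost it.

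Over all 33 lists, the protein-coding genes closest to NFKB1 in where a gene-end peak was present were PDIK1L, SH3GLB1, CTSZ and SLC44A2, which differed from it in 2 lists, and UBE2L5, which differed in 3. Their covered length correlated with that of NFKB1 at r of 0.82, 0.69, 0.55, 0.53 and 0.81 over the 33 lists. In all 18 genes differed in 3 or fewer lists, so the pattern of NFKB1 was shared. The lists differ in target and length, which all genes share, so the correlations describe and do not test.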

How the data were processed

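The labels describe 43 samples of SUDHL5 and KARPAS422, of which 33 have a peak list and 10 are inputs. Peaks were called with MACS2 after Trim Galore, Bowtie2, SAMtools and Picard on hg38 and dm6, per the submitters' processing notes. For versions, controls and blacklists the entry is: not given in the sources used here. Each deposited fold is the authors' ratio of a peak over its own list's background, and the deposited -log10 p and q values are the authors' per-peak scores; they were used only to rank and filter peaks within a list. The lowest -log10 q was 1.301. In all there were 286536 peaks; 25 on unplaced contigs were dropped, and an overlap of 1 base counted.

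Genes were 20037 protein-coding genes of a RefSeq table (GRCh38.p14) without strand. Presence and covered length were computed in Python 3.11.15 with numpy 2.4.6, pandas 2.3.3 and scipy 1.17.1. Tests on covered length were exact permutation tests, two-sided; for CDK9, labels were permuted within each line with both SUDHL5 antibodies together, in 10 tests. The calls were tested on simulated data. No peak list repeated another. Named genes were the 10 members, pathway genes gained or lost in at least 2 of 3 CDK9 sets, and the 5 genes most like NFKB1; CYLD, IER3, IRAK1, MAP3K7, IKBKB, TRAF2 and PLEK and the stretches shared by treated lists were named after their values were seen. The members, lists and tests were chosen with earlier results of these data known. Alternatives were a stricter q, equal numbers of top peaks, a 2.5 kb window, summits, transcript starts, the gene with 2 kb either side, a replicate block, antibodies permuted separately and leaving out each list.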

Additional observations from a re-analysis of the deposited data

How the results depend on the processing

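Of 184 recomputed counts of gained or lost genes, 167 stayed within 1.5 times and 17 moved. Of 320 recomputed covered lengths, 303 kept their direction and side of the test's threshold, 14 reversed and 3 passed it. The smallest possible exact permutation p was 0.0556 for the combined CDK9 tests and 0.333 for 2 against 2 lists, both above that threshold. Staying on its side was thus largely fixed in advance by the number of lists, and the 303 bear on direction. Gained counts for CDK9 were 0 in all 3 sets at equal numbers of top peaks, 0 in KARPAS422 at a -log10 q of at least 5, and 5 with CST2316S in SUDHL5 in a 2.5 kb window or over the gene with 2 kb either side (the last added after seeing the data). Leaving out 1 list gave 3 to 7 gained genes with ab239364 (6 without DMSO replicate 2, 7 without CDK-TCIP1 replicate 1) and 1 to 3 in KARPAS422, with NFKB1 among them each time, 0 or 1 for Ser5P at 2 h (NFKBIZ without DMSO replicate 2) and 0 or 1 for Pol II at 2 h (NFKBIE without CDK-TCIP1 replicate 2). Ser2P losses were 1 at 2 h (TRAF1) at a -log10 q of at least 5, 0 to 2 at 2 h and 0 to 1 at 4 h when a list was left out, with NFKB1 and TNFAIP3 the genes. Directions reversed for TRAF1 CDK9 at equal top peaks (-0.191 kb) and, at the stricter q, for Ser2P of NFKB1 (0.0885 kb at 2 h, 0.038 kb at 4 h) and REL (0.133 kb at 2 h), with 0.689 kb for REL at 2 h at equal top peaks. They also reversed when 1 list was left out for RELB CDK9 (-0.0113 to 0.126 kb, negative without the first ab239364 DMSO list), for Ser2P at 2 h of NFKB1 (-0.332 to 0.11 kb), REL (-0.953 to 0.653 kb), NFKBIE (-2.37 to 0.34 kb) and TNFAIP3 (-1.18 to 0.0825 kb), each highest without CDK-TCIP1 replicate 1, and for Ser2P at 4 h of NFKB1 (-0.332 to 0.0095 kb) and REL (-0.746 to 0.068 kb). The cause was not tested. For NFKB1 the combined CDK9 difference was 0.727 to 0.85 kb when a list was left out, 0.668 kb at the stricter q and 0 at equal top peaks. With the SUDHL5 antibodies permuted separately, which takes their lists as independent, the exact permutation p was 0.00926 for NFKB1 and 0.0278 for NFKBIA and TRAF1. Gene by gene, replicate numbers paired the lists little (correlations of deviations -0.04 to 0.11). List lengths of Pol II nonetheless went with replicate number, with replicate 1 shortest and replicate 2 longest in every group. With the replicate block the exact permutation p for NFKB1 was 0.125, the smallest that this scheme allows, for the same 0.789 kb, and no call changed. Peak lists without read depth limit all of this: a missing peak is not missing protein.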
